A study of Mus musculus with 3 samples.

Results

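Endothelial cells were described in single-cell transcript counts from the kidneys of E14.5 mouse embryos, all wild type. A cell was counted as endothelial when it had 500 or more detected genes, 3 or more of the 8 markers Pecam1, Kdr, Plvap, Emcn, Egfl7, Fabp4, Tmem88 and Gimap4, and neither Ptprc nor Tyrobp, a pair of genes that mark immune cells. Detection meant 1 or more UMIs (unique molecular identifiers, which count each captured transcript once) in the droplet libraries and 20 or more reads in the chip library, whose reads carry no stated identifier. The members were thus chosen by the measured counts of these 10 genes. By this gate 656 of 5081 cells were endothelial and 4425 were other cells.

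The study ran the same tissue through Fluidigm C1, Drop-seq and 10x Chromium, and each platform gave 1 library. The embryos carried no transgene or treatment named in the labels and were of a mixed background that was mostly CD-1 and 129. The endothelium and the cells it was set against share tissue, age and library, so each library gave its own internal comparison. Drop-seq and 10x capture cells in droplets, and C1 captures them in the chambers of a chip.

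Endothelium lines every blood and lymphatic vessel. VEGF from neighbouring cells acts through the receptor Kdr (VEGFR2) to drive vessel growth, angiopoietins act through Tek (TIE2) to stabilise vessels, and Notch signals between endothelial cells help set arterial identity. In the developing kidney the endothelium forms the arteries, veins, peritubular vessels and glomerular capillaries, and it exchanges signals with the epithelium and stroma around it.

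The endothelial share was 6.42% of cells in Drop-seq (126 of 1964, exact 95% binomial interval 5.37 to 7.59%), 20.1% in 10x (453 of 2252, 18.5 to 21.8%) and 8.90% in C1 (77 of 865, 7.09 to 11%). These intervals cover counting error only, and with 1 library a platform the differences between platforms were not tested. Endothelial and other cells had median counts of 7083.5 and 7048.5 UMIs in Drop-seq, 8480 and 6943 UMIs in 10x, and 223418 and 166395.5 reads in C1. No cell barcode was shared between libraries. Another 2 Drop-seq, 3 10x and 1 C1 cells had 3 or more markers together with an immune gene and were counted among the other cells. The C1 cells fell into a pair of name groups whose meaning the labels do not give, with endothelial shares of 7.35% (41 of 558) in HT and 11.7% (36 of 307) in E14.

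The gate markers were found together in the same cells. Their values chose the cells and are given as a description without a test, each marker among cells that had 3 or more of the other 7 whatever its own count. Fabp4, a fatty-acid binding protein of capillaries, was detected in 95.7%, 90.4% and 87% of the cells with 3 or more of the other 7 markers in Drop-seq, 10x and C1, against 6.77%, 8.72% and 3.14% of the remaining cells. Emcn (endomucin, a sialomucin of capillaries and veins) was detected in 77%, 91.8% and 87% of the cells with 3 or more of the other 7 markers in Drop-seq, 10x and C1, against 3.26%, 12.2% and 9.55% of the remaining cells. Both markers were found in most such cells of every library. Kdr was detected in 73.4%, 77.1% and 23.7% of the cells with 3 or more of the other 7 markers in Drop-seq, 10x and C1, against 1.09%, 0.888% and 0.380% of the remaining cells. Pecam1 (CD31, a cell-cell adhesion protein) was detected in 69%, 82.7% and 33.8% of the cells with 3 or more of the other 7 markers in Drop-seq, 10x and C1, against 1.20%, 2.21% and 0.127% of the remaining cells. The C1 shares of Kdr and Pecam1 were the lowest of the 24 such values, and that of Fabp4 in Drop-seq was the highest. Egfl7, a secreted vessel protein, had the highest shares in the remaining cells, at 16.1%, 27.3% and 14.4% in Drop-seq, 10x and C1.

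Cells near the threshold held endothelial genes outside the gate less often than those well inside it. Cdh5 (VE-cadherin, the adherens junction protein of endothelium), which the gate did not use, was found in 84.1%, 91.6% and 82.4% of cells with 7 or 8 markers in Drop-seq, 10x and C1. Just inside the threshold, at 3 markers, it was found in 3 of 11 cells of Drop-seq (27.3%), 4 of 41 of 10x (9.76%) and 4 of 14 of C1 (28.6%). Just outside it, at 2 markers, it was found in 0 of 66 Drop-seq cells, which allows up to 4.55%, in 1 of 160 from 10x (0.625%) and in 2 of 28 from C1 (7.14%). Of the 41 10x cells at 3 markers, 24 had none of 10 endothelial genes outside the gate, and the same held for 5 of 11 in Drop-seq and 4 of 14 in C1.

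**Figure D1:**
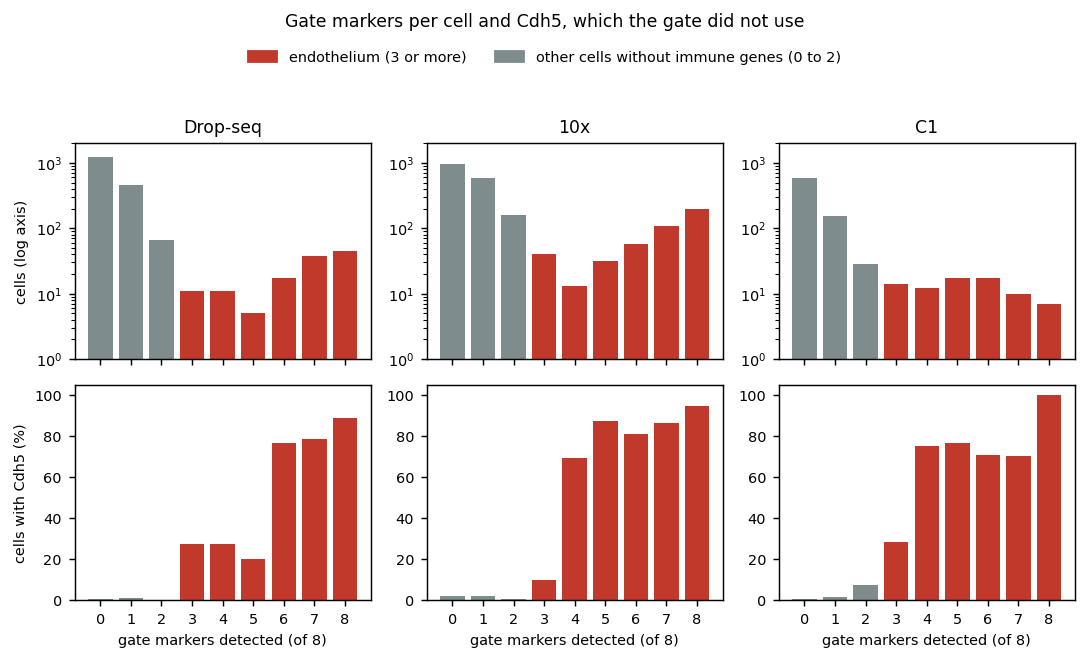
Top row, cells (log axis) by the number of gate markers detected in Drop-seq, 10x and C1; bottom row, the percentage of those cells with Cdh5. Red bars are endothelium and grey bars other cells without an immune gene; in both droplet libraries more cells had 8 markers than 5, and Cdh5 reached 94.5% of 10x cells with 8 markers.

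Endothelial genes that had no part in the gate marked the same cells. Of 10 such genes (Cdh5, Tie1, Tek, Flt1, Esam, Cldn5, Erg, Sox17, Cd34, Eng), 3 or more were found in 86.5%, 91.2% and 67.5% of endothelial cells in Drop-seq, 10x and C1, against 0.109%, 0.50% and 0.254% of their other cells. Cdh5 reached 241, 296 and 208 CPM in the endothelium of Drop-seq, 10x and C1, against 1.38, 3.14 and 4.49 CPM in their other cells (CPM, the summed counts of a group scaled to its sequencing depth; log2 fold change 6.43 ± 0.40 SE, edgeR adjusted p = 0.000481). Tek, the angiopoietin receptor, had 122, 96.6 and 154 CPM in the endothelium of Drop-seq, 10x and C1, against 1.89, 2.36 and 4.06 CPM in their other cells (log2 fold change 5.62 ± 0.20 SE, edgeR adjusted p = 1.16e-07). Flt1 (VEGFR1, a VEGF receptor that can act as a decoy) stood at 196, 202 and 63.6 CPM in the endothelium of Drop-seq, 10x and C1, against 1.60, 1.41 and 0.847 CPM in their other cells (log2 fold change 6.80 ± 0.23 SE, edgeR adjusted p = 1.16e-07). No value of these 3 genes in other cells came near an endothelial one. Esam, an endothelial adhesion molecule, reached 230, 341 and 224 CPM in the endothelium of Drop-seq, 10x and C1, against 1.02, 3.85 and 3.55 CPM in their other cells (log2 fold change 6.66 ± 0.34 SE, edgeR adjusted p = 8.53e-05). The groups did not overlap for Esam either. Cldn5 (claudin-5, a tight junction protein) reached 341, 877 and 7.95 CPM in the endothelium of Drop-seq, 10x and C1, against 38.1, 56 and 0.840 CPM in their other cells (log2 fold change 3.65 ± 0.21 SE, edgeR adjusted p = 2.06e-05). Erg, an ETS transcription factor of endothelium, reached 154, 57.6 and 2.89 CPM in the endothelium of Drop-seq, 10x and C1, against 2.83, 0.236 and 0.0138 CPM in their other cells (log2 fold change 6.65 ± 0.40 SE, edgeR adjusted p = 1.55e-05). Both were far lower in C1 than in the droplet libraries, and Cldn5 reached 20 reads in 0 of 77 endothelial C1 cells, which allows a share of up to 3.90%. With 1 UMI as detection, Cldn5 was found in 73% of endothelial Drop-seq cells and 87.9% of endothelial 10x cells, against 10.6% and 9.78% of their other cells.

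**Figure D2:**
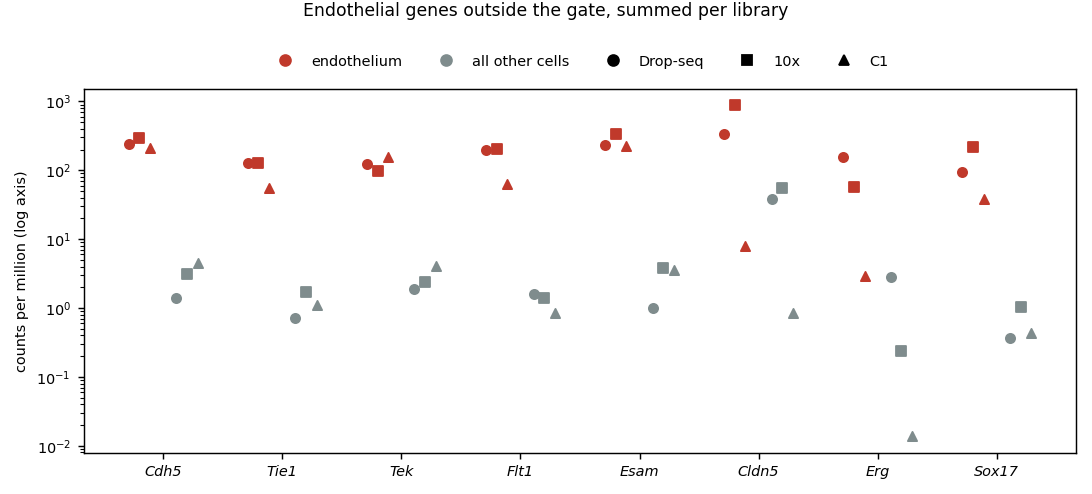
CPM (log axis) of 8 endothelial genes outside the gate, summed over endothelium (red, left) and all other cells (grey, right) of each library (circle Drop-seq, square 10x, triangle C1; 1 value a library and group). Within each library every red point lies above its grey partner, with Cldn5 in C1 at 7.95 CPM in endothelium and 0.840 CPM in other cells.

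The promoters of 4 of these genes are shown because the genes were higher together. The windows run from 250 bases before to 50 bases after the RefSeq start site (GRCm38.p6, the same assembly as mm10), and capitals mark AGGAAG or CGGAAG on either strand, a pair of words, different in their first letter, that ETS factors such as Erg can bind. Tie1, the partner receptor of Tek, lies on the minus strand (chr4:118489800-118490099), Tek on the plus strand (chr4:94739039-94739338), Flt1 on the minus strand (chr5:147725962-147726261) and Cldn5 on the plus strand (chr16:18776597-18776896).
Tie1: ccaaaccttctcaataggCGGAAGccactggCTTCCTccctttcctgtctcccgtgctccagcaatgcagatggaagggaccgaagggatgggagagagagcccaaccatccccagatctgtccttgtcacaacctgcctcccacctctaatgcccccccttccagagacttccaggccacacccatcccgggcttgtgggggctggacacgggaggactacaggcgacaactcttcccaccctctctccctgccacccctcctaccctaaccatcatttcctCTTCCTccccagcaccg
Tek: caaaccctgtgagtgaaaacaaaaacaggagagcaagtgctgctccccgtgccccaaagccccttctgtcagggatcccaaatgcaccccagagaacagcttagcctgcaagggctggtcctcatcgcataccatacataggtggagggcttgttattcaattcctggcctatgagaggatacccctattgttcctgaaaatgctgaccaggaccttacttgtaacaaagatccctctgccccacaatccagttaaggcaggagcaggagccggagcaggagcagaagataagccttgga
Flt1: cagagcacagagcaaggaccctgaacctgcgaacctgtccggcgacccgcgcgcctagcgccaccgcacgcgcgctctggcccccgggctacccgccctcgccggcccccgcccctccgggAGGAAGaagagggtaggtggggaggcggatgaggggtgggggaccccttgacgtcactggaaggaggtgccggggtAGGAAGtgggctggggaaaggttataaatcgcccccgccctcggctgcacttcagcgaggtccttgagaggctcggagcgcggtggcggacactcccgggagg
Cldn5: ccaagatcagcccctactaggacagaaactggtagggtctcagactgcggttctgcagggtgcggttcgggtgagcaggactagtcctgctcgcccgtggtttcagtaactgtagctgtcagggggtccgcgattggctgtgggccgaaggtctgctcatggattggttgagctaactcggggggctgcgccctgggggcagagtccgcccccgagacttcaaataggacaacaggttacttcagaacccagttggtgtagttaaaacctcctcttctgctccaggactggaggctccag
Tie1 held 3 matches and Flt1 held 2, while the Tek and Cldn5 windows held 0. At least 1 match occurred in 56.6% of 975 promoters of genes higher in endothelium, in 53.5% of 9864 promoters of all tested genes and in 46.4% of all 27025 promoters in the reference. Of the 10 endothelial genes outside the gate, 7 had a window and 4 of these held a match. A match describes the letters of the window and was not tested as a binding site.

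Set against all other cells, the endothelium differed at many genes. Counts were summed per library and group, and edgeR's quasi-likelihood test with the library as a block was applied to 12851 genes, leaving out the 10 genes of the gate. At a Benjamini-Hochberg adjusted p under 0.05, 1272 genes (9.9%) were higher and 1000 (7.78%) lower in endothelium. The p-values measure the spread of this difference over 3 libraries made on different platforms. They do not measure spread between kidneys, and genes that travel with the gate markers were bound to differ. Without the Drop-seq library 793 genes were higher and 573 lower, without 10x 813 and 687, and without C1 1502 and 1936. When 1 read sufficed for detection in C1, its endothelium grew to 269 of 894 cells, and 143 genes were higher and 20 lower. The calls of 78 of 93 called genes named by rule then ended, Cdh5, Tie1, Tek, Flt1, Esam, Cldn5, Aplnr, Gpihbp1, Procr, Ptprb and Sox18 among them, with no change of sign. The calls of Esm1, Exoc3l, F2rl3, Gja5, Notch4, Pdgfb, Sox17, Sox7 and Stab2 held in every alternative that could be run for them.

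The 10 largest increases were led by Esm1, F2rl3 and Sox17. Esm1 (endocan, a proteoglycan secreted at sprouting tips) reached 27.4, 70.7 and 15.2 CPM in the endothelium of Drop-seq, 10x and C1, against 0.0727, 0.236 and 0.131 CPM in their other cells (log2 fold change 7.53 ± 0.37 SE, edgeR adjusted p = 6.93e-07). F2rl3, a thrombin receptor, had 17.9, 17.9 and 16 CPM in the endothelium of Drop-seq, 10x and C1, against 0.291, 0.157 and 0.0482 CPM in their other cells (log2 fold change 7.40 ± 0.61 SE, edgeR adjusted p = 2.76e-05). Sox17, a SOXF transcription factor of arteries, reached 96, 215 and 38.7 CPM in the endothelium of Drop-seq, 10x and C1, against 0.363, 1.02 and 0.427 CPM in their other cells (log2 fold change 7.26 ± 0.31 SE, edgeR adjusted p = 1.58e-06). In other cells none of these 3 genes passed 1.02 CPM in any library. Aplnr, the apelin receptor, stood at 188, 298 and 159 CPM in the endothelium of Drop-seq, 10x and C1, against 0.945, 1.26 and 1.85 CPM in their other cells (log2 fold change 7.20 ± 0.34 SE, edgeR adjusted p = 3.85e-05). Gpihbp1, which carries lipoprotein lipase to the capillary surface, had 59.1, 148 and 94.2 CPM in the endothelium of Drop-seq, 10x and C1, against 0.363, 1.18 and 0.723 CPM in their other cells (log2 fold change 7.19 ± 0.20 SE, edgeR adjusted p = 2.48e-08). The other 5 of the 10 largest increases were Myct1 (7.18), Exoc3l (7.01), Ptprb (7.01; VE-PTP, a phosphatase that acts on Tek), Procr (7.0; the endothelial protein C receptor) and Sox18 (6.97), as log2 fold changes. All 10 had higher values in endothelium than in other cells in each library, which the rule that named them required.

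Sox18, a SOXF factor like Sox17, had uneven levels in the 3 libraries, a difference that was not tested with 1 library a platform. It reached 124, 6.54 and 56.2 CPM in the endothelium of Drop-seq, 10x and C1, against 1.02, 0.0786 and 0.482 CPM in their other cells (log2 fold change 6.97 ± 0.27 SE, edgeR adjusted p = 1.54e-07). It was detected in 49.2%, 5.52% and 22.1% of endothelial cells in Drop-seq, 10x and C1, against 0.707%, 0.0556% and 0% of their other cells. The lowest endothelial level, in 10x, was thus still above every level in other cells.

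Receptors of vessel growth and guidance were mostly higher in endothelium. Of 23 listed receptors tested, 18 were higher (78.3%, against 9.9% of all genes) and 5 did not pass. Their median log2 fold change was 3.50 against -0.04 over all genes tested. Tie1 reached 127, 129 and 54.5 CPM in the endothelium of Drop-seq, 10x and C1, against 0.727, 1.73 and 1.11 CPM in their other cells (log2 fold change 6.32 ± 0.32 SE, edgeR adjusted p = 1.26e-05). S1pr1, a sphingosine-1-phosphate receptor, reached 47.5, 37.5 and 51.4 CPM in the endothelium of Drop-seq, 10x and C1, against 0.727, 0.629 and 1.72 CPM in their other cells (log2 fold change 5.54 ± 0.31 SE, edgeR adjusted p = 1.85e-06). Robo4, an endothelial guidance receptor, had 48.5, 65.9 and 67.3 CPM in the endothelium of Drop-seq, 10x and C1, against 0.363, 0.472 and 2.04 CPM in their other cells (log2 fold change 6.01 ± 0.46 SE, edgeR adjusted p = 0.000380). All 3 were higher in endothelium than in other cells of each library, with no overlap. Ednrb, an endothelin receptor, reached 328, 161 and 183 CPM in the endothelium of Drop-seq, 10x and C1, against 7.05, 7.15 and 13.7 CPM in their other cells (log2 fold change 4.67 ± 0.39 SE, edgeR adjusted p = 0.00139). Without 10x its adjusted p was 0.206. The VEGF co-receptor Nrp2 (log2 fold change 2.55) and the VEGFC receptor Flt4 (4.90) were higher, whereas Bmpr2 (0.64, adjusted p = 0.107), Il6st (0.56, adjusted p = 0.115) and Cxcr4 (-0.02, adjusted p = 0.978) did not pass edgeR's test.

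Ligands differed in both directions. Of 22 listed ligands tested, 12 were higher (54.55%, against 9.9% of all genes) and 5 lower (22.7%, against 7.78%). Their median log2 fold change was 1.32. Pdgfb, which recruits pericytes, reached 16.9, 29.7 and 12.9 CPM in the endothelium of Drop-seq, 10x and C1, against 0.800, 1.57 and 0.269 CPM in their other cells (log2 fold change 4.96 ± 0.43 SE, edgeR adjusted p = 3.81e-05). Nos3, the endothelial nitric oxide synthase, is listed with the ligands for the diffusible signal it makes and reached 42.2, 50.8 and 7.66 CPM in the endothelium of Drop-seq, 10x and C1, against 1.53, 0.865 and 0.661 CPM in their other cells (log2 fold change 4.72 ± 0.48 SE, edgeR adjusted p = 0.000409). Apln, the ligand of Aplnr, had 27.4, 21.1 and 11.9 CPM in the endothelium of Drop-seq, 10x and C1, against 3.71, 5.34 and 4.44 CPM in their other cells (log2 fold change 2.19 ± 0.36 SE, edgeR adjusted p = 0.00231). The 5 lower ligands were Vegfa, Angpt1, Cxcl12, Bmp4 (-1.01; adjusted p = 0.0609 without Drop-seq and 0.133 without 10x) and Sema3c (-2.11). Vegfa stood at 10.5, 0.503 and 18.7 CPM in the endothelium of Drop-seq, 10x and C1, against 36.3, 5.82 and 41.9 CPM in their other cells (log2 fold change -1.53 ± 0.32 SE, edgeR adjusted p = 0.0100). Angpt1, the activating ligand of Tek, had a log2 fold change of -1.46 (edgeR adjusted p = 0.0134; 0.0979 without Drop-seq), and Cxcl12, the ligand of Cxcr4, one of -0.98 (adjusted p = 0.00105). Angpt2, an antagonist of Tek made by sprouting endothelium, had a log2 fold change of -0.46 and did not pass (adjusted p = 0.484).

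Most transcription factors listed for endothelium were higher. Of 33 tested, 22 were higher (66.7%, against 9.9% of all genes) and 5 lower (15.15%, against 7.78%). Their median log2 fold change was 2.57. The ETS factors Erg (6.65), Fli1 (3.03), Ets1 (2.57), Ets2 (2.25) and Elk3 (3.01) were all higher. Sox7, another SOXF factor, reached 32.7, 33.7 and 43.2 CPM in the endothelium of Drop-seq, 10x and C1, against 0.509, 0.629 and 0.640 CPM in their other cells (log2 fold change 6.11 ± 0.28 SE, edgeR adjusted p = 4.05e-07). Lmo2, a partner of Tal1 in blood and vessel formation, reached 96, 376 and 92 CPM in the endothelium of Drop-seq, 10x and C1, against 5.81, 9.59 and 2.92 CPM in their other cells (log2 fold change 5.0 ± 0.26 SE, edgeR adjusted p = 1.57e-05). Tal1 itself (5.13), Hhex (5.10) and Bcl6b (5.86) were also higher. Nr2f2 (COUP-TFII, a venous factor that is also made by stroma) was lower, at 225, 111 and 192 CPM in the endothelium of Drop-seq, 10x and C1, against 412, 324 and 326 CPM in their other cells (log2 fold change -0.90 ± 0.14 SE, edgeR adjusted p = 0.00169). Foxc1 (-1.48), Foxc2 (-1.12), Meox2 (-1.57) and Hopx (-1.28) made up the remainder of the 5, and the Hopx call ended without Drop-seq (adjusted p = 0.166) or without 10x (0.107). The inhibitor of differentiation genes Id1 (0.23, adjusted p = 0.262) and Id3 (-0.03, adjusted p = 0.842) did not pass.

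Junction, adhesion and membrane-trafficking genes were higher in most cases. Of 28 junction and adhesion genes tested, 19 were higher (67.9%, against 9.9% of all genes) and 3 lower (10.7%, against 7.78%). Their median log2 fold change was 1.60. Icam2, an adhesion molecule for leukocytes, reached 245, 465 and 366 CPM in the endothelium of Drop-seq, 10x and C1, against 1.96, 4.09 and 5.23 CPM in their other cells (log2 fold change 6.69 ± 0.21 SE, edgeR adjusted p = 1.48e-07). Cd93 reached 176, 263 and 335 CPM in the endothelium of Drop-seq, 10x and C1, against 2.11, 2.59 and 4.77 CPM in their other cells (log2 fold change 6.49 ± 0.18 SE, edgeR adjusted p = 2.48e-08). The 3 lower genes were Ocln (occludin, -2.71), Vcam1 (-1.36; adjusted p = 0.0918 without 10x) and Cdh2 (N-cadherin, -0.97). Of 17 genes of caveolae and endocytosis, 11 were higher (64.7%, against 9.9% of all genes) and 2 lower (11.8%, against 7.78%). The lower genes were Dab2 (-0.96) and Lrp1 (-1.36). The Lrp1 call ended without Drop-seq (adjusted p = 0.0516) or without 10x (0.0976). Cav1 (caveolin-1) reached 97.1, 132 and 180.3 CPM in the endothelium of Drop-seq, 10x and C1, against 16.4, 24.7 and 21.3 CPM in their other cells (log2 fold change 2.86 ± 0.16 SE, edgeR adjusted p = 1.93e-06). The scavenger receptor Stab2 (6.0) and the cavin genes listed under their older symbols Sdpr (3.63) and Prkcdbp (3.50) were also higher.

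Of the functional lists, GTPase and signalling proteins had the highest share of calls, 85.7%, all of them higher, against 9.9% of all genes. Of 28 tested, 24 were higher and 4 did not pass, with a median log2 fold change of 3.91. Gimap1, a GTPase of the same family as the gate gene Gimap4, reached 180.4, 256 and 66.1 CPM in the endothelium of Drop-seq, 10x and C1, against 1.16, 2.99 and 0.888 CPM in their other cells (log2 fold change 6.67 ± 0.22 SE, edgeR adjusted p = 9.38e-08). Rasgrp3, an exchange factor for Ras proteins, reached 180.4, 97.1 and 73.7 CPM in the endothelium of Drop-seq, 10x and C1, against 1.38, 1.02 and 1.38 CPM in their other cells (log2 fold change 6.41 ± 0.27 SE, edgeR adjusted p = 7.34e-07). Rasip1 (5.32), Arhgef15 (5.82) and Ecscr (5.78) were higher too, and Rasip1 had an adjusted p of 0.0995 without Drop-seq. Spry1 (-0.40, adjusted p = 0.133), a feedback inhibitor of receptor tyrosine kinases, did not pass.

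Haemostasis genes were higher in 10 of 16 tested (62.5%, against 9.9% of all genes) and lower in 2 (12.5%, against 7.78%). Their median log2 fold change was 2.21. Procr, which activates the anticoagulant protein C pathway, reached 178, 148 and 65.7 CPM in the endothelium of Drop-seq, 10x and C1, against 1.24, 1.57 and 0.558 CPM in their other cells (log2 fold change 7.0 ± 0.19 SE, edgeR adjusted p = 2.48e-08). Thbd, thrombomodulin, reached 20.04, 14.3 and 16.3 CPM in the endothelium of Drop-seq, 10x and C1, against 0.727, 1.34 and 1.47 CPM in their other cells (log2 fold change 3.94 ± 0.43 SE, edgeR adjusted p = 0.000200). Vwf, the von Willebrand factor of mature endothelium, stood at 1.05, 3.77 and 23.5 CPM in the endothelium of Drop-seq, 10x and C1, against 0.509, 0.472 and 1.17 CPM in their other cells (log2 fold change 3.57 ± 0.65 SE, edgeR adjusted p = 0.00459). The Drop-seq value of Vwf rests on 1 endothelial UMI, against 7 UMIs in other cells, and gives no direction there. The 2 lower genes were Ptgis (-1.60) and Gucy1a3 (-0.97; adjusted p = 0.0607 without 10x). Of 18 transport and lipid genes, 7 were higher (38.9%, against 9.9% of all genes) and 3 lower (16.7%, against 7.78%), with a median of 0.65. The lower genes were Car4 (-2.25), Slc40a1 (-1.52; adjusted p = 0.0985 without Drop-seq) and Lpl. Lpl, the lipase that Gpihbp1 carries, was lower, at 8.44, 5.79 and 16.1 CPM in the endothelium of Drop-seq, 10x and C1, against 26.4, 23.6 and 29.4 CPM in their other cells (log2 fold change -1.26 ± 0.27 SE, edgeR adjusted p = 0.0103). Fabp5, a fatty-acid binding protein, reached 879, 1976 and 1258 CPM in the endothelium of Drop-seq, 10x and C1, against 257, 272 and 373 CPM in their other cells (log2 fold change 2.28 ± 0.31 SE, edgeR adjusted p = 0.0150). Its adjusted p was 0.107 without Drop-seq.

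**Figure D3:**
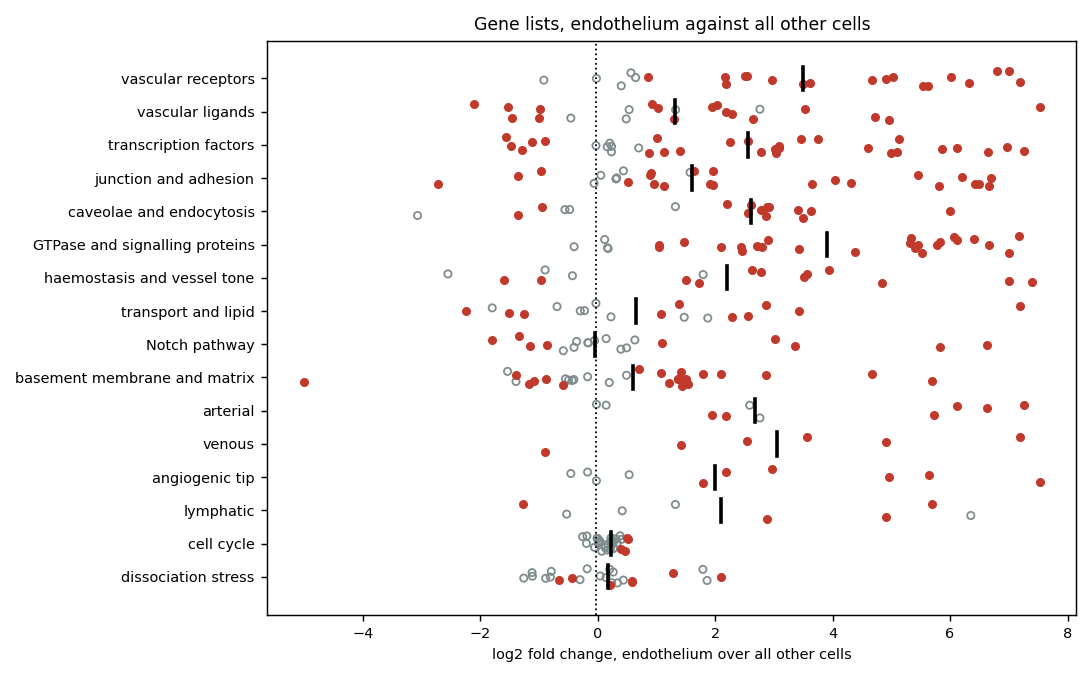
Log2 fold change of endothelium over all other cells for each gene of 16 lists; filled points passed an adjusted p of 0.05, open points did not, the bar is the list's median and the dotted line the median of all genes tested. The receptor and GTPase lists lie mostly to the right, with medians of 3.50 and 3.91, and the cell cycle genes close to 0.

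Notch pathway genes moved in both directions. Of 19 tested, 5 were higher (26.3%, against 9.9% of all genes) and 4 lower (21.05%, against 7.78%). Their median log2 fold change was -0.05. Dll4, a Notch ligand of arteries and sprouting tips, reached 30.6, 41 and 13.9 CPM in the endothelium of Drop-seq, 10x and C1, against 0.145, 0.629 and 0.165 CPM in their other cells (log2 fold change 6.62 ± 0.38 SE, edgeR adjusted p = 2.23e-06). Mfng, a glycosyltransferase that modifies Notch, reached 73.8, 109 and 34.1 CPM in the endothelium of Drop-seq, 10x and C1, against 1.09, 0.865 and 1.20 CPM in their other cells (log2 fold change 5.83 ± 0.45 SE, edgeR adjusted p = 0.000492). Notch1 (1.09) and Notch4 (3.01) were higher, and Notch2 (-1.34) and Notch3 (-1.81) lower. The Notch3 adjusted p was 0.0685 without 10x. Jag2 was higher at few counts (2.11, 4.28 and 3.27 CPM in the endothelium of Drop-seq, 10x and C1, against 0.509, 0.157 and 0.427 CPM in their other cells), with an adjusted p of 0.258 without 10x and 0.0865 without Drop-seq. Jag1 (-0.86) and Heyl (-1.15) were lower, and both calls ended without Drop-seq (0.0939 and 0.0664) and without 10x (0.0851 and 0.134). The target genes Hes1 (-0.16, adjusted p = 0.444) and Hey1 (0.14, adjusted p = 0.714) did not pass.

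Many basement membrane genes were higher in endothelium, whereas the crosslinking enzyme Lox and fibronectin were lower. Of 30 tested, 15 were higher (50%, against 9.9% of all genes) and 6 lower (20%, against 7.78%). Their median log2 fold change was 0.59. Col4a1, a chain of collagen IV, reached 327, 179 and 588 CPM in the endothelium of Drop-seq, 10x and C1, against 132, 71.1 and 292 CPM in their other cells (log2 fold change 1.37 ± 0.12 SE, edgeR adjusted p = 5.14e-05). Hspg2 (perlecan) reached 58, 164 and 64.3 CPM in the endothelium of Drop-seq, 10x and C1, against 17.4, 39.1 and 16.5 CPM in their other cells (log2 fold change 2.10 ± 0.15 SE, edgeR adjusted p = 1.28e-05). Col15a1, a basement membrane collagen, had 65.4, 132 and 53.5 CPM in the endothelium of Drop-seq, 10x and C1, against 2.04, 4.48 and 3.42 CPM in their other cells (log2 fold change 4.67 ± 0.25 SE, edgeR adjusted p = 2.63e-06). For these 3 genes every endothelial value was above the value in other cells of its library. Lox, which crosslinks collagen, was lower, at 1.05, 0.755 and 0 CPM in the endothelium of Drop-seq, 10x and C1, against 6.03, 16 and 4.68 CPM in their other cells (log2 fold change -5.0 ± 0.90 SE, edgeR adjusted p = 0.00442). With 0 counts in the C1 endothelium, it was at least 32.4-fold lower there. The rest of the 6 lower genes were Fn1 (-0.89), Igfbp7 (-1.40), Cyr61 (-1.18), Col4a5 (-1.08) and Mmp14 (-0.59), and without Drop-seq the calls of Igfbp7 (adjusted p = 0.151), Col4a5 (0.208) and Mmp14 (0.0661) ended. The Col4a5 call also ended without 10x (0.152) and that of Mmp14 without C1 (0.164).

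Of 30 cell cycle genes tested, 4 (Cdk1, Mcm3, Mcm5, Rrm1) were higher and 26 did not pass, with a median log2 fold change of 0.22. The 13.3% that were higher compare with 9.9% of all genes tested, and against stroma 6 of 30 (20%) were higher, compared with 13.2%. Mki67, a marker of dividing cells, had 188, 102 and 275 CPM in the endothelium of Drop-seq, 10x and C1, against 187, 105 and 234 CPM in their other cells (log2 fold change 0.23 ± 0.11 SE, edgeR adjusted p = 0.208). Its values overlapped between groups. The increases of Cdk1 (0.52), Mcm5 (0.50), Mcm3 (0.46) and Rrm1 (0.40) all lost the call without Drop-seq (adjusted p = 0.0771, 0.11, 0.0992 and 0.133) and without 10x (0.186, 0.0909, 0.0928 and 0.176). Without C1, Mcm3 (0.104) and Rrm1 (0.132) did too. Of 24 genes known to respond to tissue dissociation, 5 were higher (20.8%, against 9.9% of all genes) and 2 lower (8.33%, against 7.78%), with a median of 0.17. Nfkbia, an inhibitor of NF-kappaB, reached 180.4, 135 and 192 CPM in the endothelium of Drop-seq, 10x and C1, against 78.7, 48.4 and 114 CPM in their other cells (log2 fold change 1.28 ± 0.17 SE, edgeR adjusted p = 0.000822). The calls of the other 6 ended when a library was left out. Without Drop-seq the adjusted p was 0.0743 for Atf3 (2.09), 0.323 for Klf6 (0.59), 0.128 for Myc (0.58), 0.199 for Hsp90ab1 (0.21) and 0.105 for Jund (-0.45). Without 10x it was 0.161 for Egr1 (-0.66), 0.12 for Klf6, 0.155 for Myc and 0.145 for Jund, and without C1 0.347 for Hsp90ab1 and 0.0653 for Jund.

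Genes of other kidney cell types were still present in endothelium, and not all were lower. Of the markers tested, 1 of 5 cap mesenchyme (Six2), 4 of 6 nephron epithelium, 2 of 6 ureteric and 1 of 5 pericyte genes were called lower. Of 5 podocyte markers, 1 was lower and 1 (Clic5) higher. Over all genes tested, 7.78% were lower and 9.9% higher. All 8 stroma markers were lower, but Pdgfra not without Drop-seq (adjusted p = 0.0862) and Pdgfrb not without 10x (0.0762). Among them was Dcn, a small matrix proteoglycan, with 24.3, 23.4 and 72.7 CPM in the endothelium of Drop-seq, 10x and C1, against 62.3, 215 and 264 CPM in their other cells (log2 fold change -2.08 ± 0.31 SE, edgeR adjusted p = 0.00783). Of 16 ureteric and nephron signals tested, 7 were lower (43.75%, against 7.78% of all genes) and 9 did not pass. Pax2, a factor of nephron progenitors and ureteric epithelium, reached 49.6, 9.06 and 2.84 CPM in the endothelium of Drop-seq, 10x and C1, against 219, 86.1 and 8.66 CPM in their other cells (log2 fold change -2.15 ± 0.27 SE, edgeR adjusted p = 0.00128). Six2, the factor of nephron progenitors, reached 11.6, 2.77 and 32.4 CPM in the endothelium of Drop-seq, 10x and C1, against 31.9, 32.9 and 73.9 CPM in their other cells (log2 fold change -1.73 ± 0.41 SE, edgeR adjusted p = 0.0353; 0.15 without Drop-seq). Summed over the 8 stroma markers, the level was 224, 172 and 481 CPM in endothelium and 569, 1213 and 1402 CPM in other cells of Drop-seq, 10x and C1, all 8 being above 0 in endothelium. Summed ureteric markers were 169, 58.8 and 311 CPM in endothelium and 787, 775 and 633 CPM in other cells. At least 2 ureteric markers were found in 11.1%, 3.75% and 20.8% of endothelial cells in Drop-seq, 10x and C1, against 31.9%, 29.0% and 17.5% of other cells. At least 2 pericyte markers were found in 3.17%, 2.87% and 7.79%, against 3.65%, 9.12% and 3.93%. Both shares were thus higher in endothelium in C1 only. Over 6 genes, erythroid markers summed to 1251 and 478 CPM in endothelium and 15153 and 873 CPM in other cells of Drop-seq and 10x. The C1 table listed only 4 of them, so its sums are a different measure. They were higher in endothelium, at 15.9 CPM against 0.416 CPM in other cells. In C1 endothelium Hba-a1 and Hba-a2 were at 0 and Alas2 had 1 read, so the sum rests almost wholly on the remaining gene. There, 0 of 77 cells held 2 or more erythroid markers. A single 10x cell held 88.4% of the Hba-a1 counts (an alpha-globin) of the endothelium, and a single Drop-seq cell 54.9%. In Drop-seq 2 or more erythroid markers were found in 88.9% of endothelial and 89.6% of other cells, and in 10x in 6.40% and 5.61%. The part of these transcripts in the differences above was not tested.

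The genes with the largest decreases were at 0 counts in the endothelium of every library. They were Clec4a2, Ptger3, Fcgr1, Grik4, Smlr1, Chga, Tm4sf20, Th, Slc1a1 and Insc, and their fitted fold changes depend on the prior count. With 0 endothelial counts, these genes passed the filter on low counts through the other cells alone. A lower value was thus the only direction they could show, and their calls are given as a description. Against a floor of 3 counts per library, Fcgr1, an antibody receptor of macrophages, was at least 10.4-fold lower in 10x and at least 15-fold lower in C1, and its call ended without 10x (adjusted p = 0.0523). Th (tyrosine hydroxylase) was at least 2.39-fold lower in 10x and at least 14.4-fold lower in C1, and its call ended without Drop-seq (0.0677) or without 10x (0.0869). The calls of Chga, Insc, Slc1a1 and Smlr1 also ended without 10x or Drop-seq, with adjusted p from 0.0635 to 0.0878. Neither Fcgr1 nor Th had enough counts in the other cells of Drop-seq for a bound. Cells with Ptprc or Tyrobp were kept out of the endothelium and stayed among the other cells, and the part of this rule in the values of immune genes such as Fcgr1 and Clec4a2 was not tested.

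Compared with stroma-marked cells, vascular receptors and GTPase-family genes were higher in the endothelium, and several matrix genes were lower. The 1164 stroma-marked cells (298 Drop-seq, 628 10x, 238 C1) had 3 or more of 8 stroma markers and none of Epcam, Cdh1, Six2, Ptprc and Tyrobp. Of 11057 genes tested, 1459 (13.2%) were higher and 1195 (10.8%) lower in endothelium, and 388 and 343 when 1 read sufficed in C1. The endothelial sums are the same in both comparisons, so their values are given side by side and are not independent. Gpihbp1 reached 59.1, 148 and 94.2 CPM in the endothelium of Drop-seq, 10x and C1, against 0, 0.767 and 0.182 CPM in their stroma-marked cells, where the Drop-seq value is at least 35.6-fold higher against a floor of 3 counts. Ctla2a reached 166, 235 and 174 CPM in the endothelium of Drop-seq, 10x and C1, against 1.66, 1.53 and 0.729 CPM in their stroma-marked cells (log2 fold change 7.70 ± 0.23 SE, edgeR adjusted p = 5.29e-09). Pdgfb was at least 10.2-fold higher in Drop-seq and at least 165-fold higher in C1, where stroma had 0 counts. Of the endothelial genes outside the gate, Cdh5 had a log2 fold change of 5.06 (adjusted p = 0.0120; 0.151 without Drop-seq) and Cldn5 4.66 (adjusted p = 0.0101; 0.109 without C1). The GTPase list had 23 higher and 1 lower (Rgs5) of 27 tested, and the matrix list 13 higher and 10 lower of 30. Of 21 receptors tested, 17 were higher and 4 did not pass, with a median log2 fold change of 2.59 against 0.01 over all genes tested.

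Several genes passed against all other cells and did not pass against stroma. Nrp1, a co-receptor for VEGF and semaphorins, had log2 fold changes of 0.86 over other cells (edgeR adjusted p = 0.00132) and 0.11 over stroma (adjusted p = 0.547). Sparcl1 had 1.47 (adjusted p = 8.53e-05) and -0.05 (adjusted p = 0.804), and Nid1, a basement membrane linker, 1.08 (adjusted p = 0.00398) and -0.32 (adjusted p = 0.0917). Igf2, an embryonic growth factor, had 1.03 (adjusted p = 0.000166) and 0.23 (adjusted p = 0.0763). Lama5, a laminin chain of epithelial basement membranes, had -0.50 over other cells (adjusted p = 0.285) and 1.95 over stroma (adjusted p = 0.0157). Itga6, a laminin receptor subunit, had 1.63 and 4.08, and it was called in both. The pericyte markers Acta2 (-2.71), Cspg4 (-1.80) and Rgs5 (-1.38; adjusted p = 0.0844 without 10x) were lower than in stroma, a gate that pericytes with Pdgfrb can enter. The ureteric markers Calb1 (2.40), Wfdc2 (1.20) and Krt18 (1.06; adjusted p = 0.166 without Drop-seq and 0.1 without C1) were higher than in stroma, whose gate left out cells with Epcam, Cdh1 or Six2. The Calb1 and Wfdc2 calls ended with 4 or more markers, in thinned cells and with no block, and the Krt18 call held in 4 of 13 alternatives and changed sign in thinned cells. Their part in the stroma comparison, and the difference between the comparisons, were not tested.

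**Figure D4:**
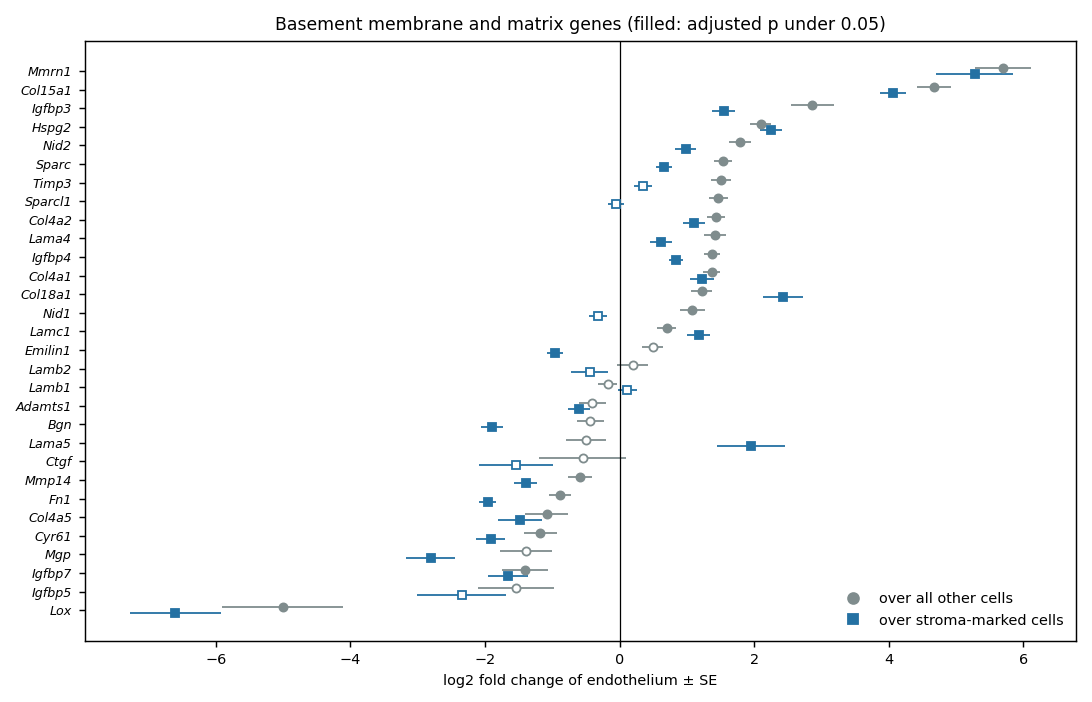
Log2 fold changes with SE of 30 basement membrane and matrix genes for endothelium over all other cells (circles) and over stroma-marked cells (squares), with filled symbols past an adjusted p of 0.05. Nid1 and Sparcl1 pass against all other cells and not against stroma, and Lama5 passes against stroma, where it has a log2 fold change of 1.95.

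Genes of vessel subtypes varied among the endothelial cells. Of the arterial genes tested, 6 of 10 were higher (60%, against 9.9% of all genes) and 4 did not pass. Of the venous genes, 5 of 6 were higher (83.3%) and 1 (Nr2f2) lower (16.7%, against 7.78% of all genes). Of the sprouting tip genes, 6 of 10 were higher (60%) and 4 did not pass. Among lymphatic genes 3 of 8 were higher (37.5%) and 1 lower (12.5%). The lower gene was Pdpn (edgeR adjusted p = 0.0686 without Drop-seq and 0.0648 without 10x). Aplnr, a venous and capillary receptor, was detected in 63.5%, 71.5% and 49.4% of endothelial cells in Drop-seq, 10x and C1, against 0.653%, 0.611% and 0.381% of their other cells. Gja4 (connexin 37, an arterial gap junction protein) was detected in 14.3%, 23.2% and 10.4% of endothelial cells in Drop-seq, 10x and C1, against 0.653%, 0.723% and 0.381% of their other cells. Gja5 (connexin 40) was detected in 1.59%, 4.64% and 3.90% of endothelial cells in Drop-seq, 10x and C1, against 0.163%, 0.167% and 0% of their other cells. All were rare or absent in other cells. Esm1 was detected in 12.7%, 19.6% and 2.60% of endothelial cells in Drop-seq, 10x and C1, against 0.0544%, 0.167% and 0% of their other cells. A count of 0 among 788 cells allows a share of up to 0.381%. Gja5 was the rarest of these 4 genes in the droplet libraries and Aplnr the most common in each library. Cells thinned to 4000 UMIs held Aplnr in 44.4% and 55.5% of endothelial cells of Drop-seq and 10x, against 0.334% and 0.331% of other cells, and Gja4 in 11.1% and 16.9% against 0.334% and 0.133%.

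Some endothelial cells held genes of the arterial list and of the venous list together. At least 2 of 10 arterial genes were found in 39.7%, 49.2% and 26% of endothelial cells in Drop-seq, 10x and C1, against 8.65%, 4.95% and 1.65% of their other cells. At least 2 of 7 venous genes were found in 69.8%, 66.2% and 57.1% of endothelial cells, against 20.3%, 18.4% and 11% of other cells. The venous list includes Nr2f2, also made by stroma, Aplnr, also of capillaries, and Flt4, also on the lymphatic list. Holding 2 of its genes thus does not by itself make a cell venous. Both held in 26.2%, 29.1% and 18.2% of endothelial cells, against 2.29%, 0.945% and 0.508% of other cells. Thinned to 4000 UMIs, both held in 11.9% of endothelial cells in Drop-seq and 8.70% in 10x, against 0.278% and 0 of 1509 other cells, which allows up to 0.199%. In C1 cells thinned to 50000 reads both held in 0 of 76 endothelial cells, which allows up to 3.95%, and arterial genes alone in 1 and venous genes alone in 4 of the 76. Detection still needed 20 reads there, so thinning alone lowers these shares. Aplnr, for example, went from 49.4% to 11.8% of endothelial C1 cells. The thinned C1 values therefore cannot tell how often the genes meet. Whether the 2 kinds of gene meet in a cell more or less often than their separate shares would give was not tested.

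**Figure D5:**
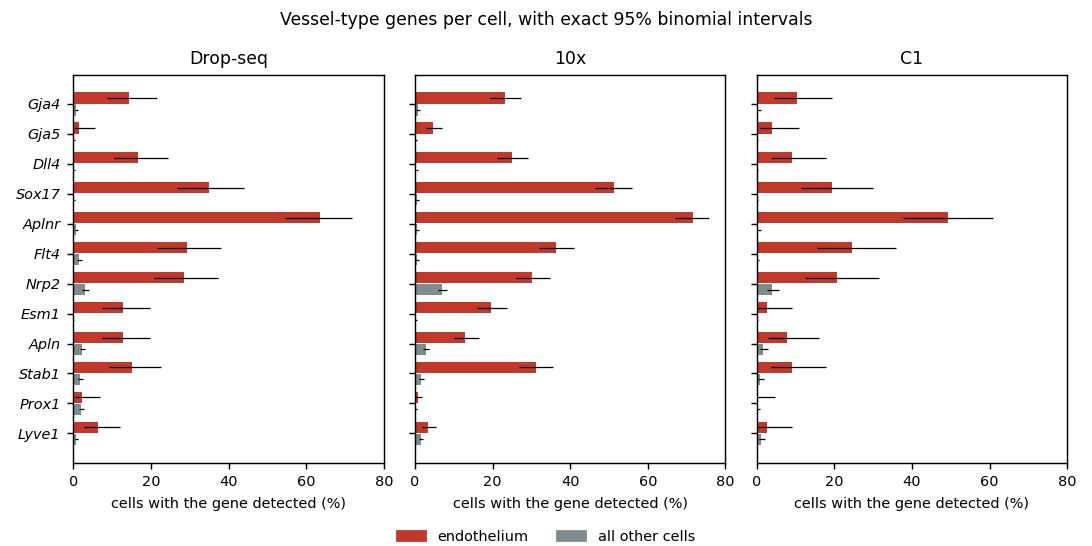
Percentage of cells with each gene detected, in endothelium (red) and all other cells (grey) of Drop-seq, 10x and C1, with exact 95% binomial intervals that cover counting error only. Of the 12 genes plotted, Aplnr was detected most often in endothelium of each library, at 71.5% in 10x, and Prox1 was found in 0.662% of endothelial cells in 10x.

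Lymphatic genes gave a handful of cells in 10x. The 4 10x cells with more than 3 Ccl21a UMIs (a chemokine of lymphatic endothelium) were chosen after their values were seen. They held 857 Ccl21a UMIs, up to 303 in a cell, whereas the other 449 endothelial 10x cells held 2 in total. All 4 passed the gate, with 6, 5, 6 and 5 markers, and Prox1, the lymphatic master factor, had 2, 4, 0 and 4 UMIs in them and 0 in the other 449 cells. Lyve1 was found in 1 of the 4 (7 UMIs) and Pdpn in 2 (2 and 3 UMIs), against 20 and 12 UMIs in the other 449 cells. They also held 21 UMIs of Mmrn1 and 20 of Flt4, against 101 and 211 in the other 449 cells, and 4 UMIs of Plvap and 3 of Emcn against 2207 and 2737. No Drop-seq or C1 cell had more than 3 Ccl21a counts. Over the whole endothelium Ccl21a did not pass (log2 fold change 6.35, adjusted p = 0.311), nor did Prox1 (0.42, adjusted p = 0.864), whose counts include 41 UMIs in other Drop-seq cells.

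Of 9 genes of glomerular and fenestrated capillaries tested, 1 was higher (Ehd3), or 11.1%, near the 9.9% of all genes tested. Another 2 were lower (Lpl and Tbx3), or 22.2%, against 7.78% of all genes tested. Ehd3, a membrane-trafficking protein of glomerular endothelium, reached 70.7, 63.7 and 30.5 CPM in the endothelium of Drop-seq, 10x and C1, against 23.8, 6.21 and 5.59 CPM in their other cells (log2 fold change 2.61 ± 0.35 SE, edgeR adjusted p = 0.00354). Tbx3 had 19, 12.3 and 3.27 CPM in the endothelium of Drop-seq, 10x and C1, against 49.9, 28.1 and 9.25 CPM in their other cells (log2 fold change -1.20 ± 0.22 SE, edgeR adjusted p = 0.00474; 0.0547 without Drop-seq). The podocyte marker Clic5, also known from glomerular endothelium, was higher, at 26.4, 6.54 and 7.51 CPM in the endothelium of Drop-seq, 10x and C1, against 4.0, 3.77 and 1.61 CPM in their other cells (log2 fold change 2.08 ± 0.49 SE, edgeR adjusted p = 0.0155; 0.166 without Drop-seq). The platelet marker Pf4 reached 45.4, 68.2 and 63.4 CPM in the endothelium of Drop-seq, 10x and C1, against 9.74, 14.54 and 36.7 CPM in their other cells (log2 fold change 1.82 ± 0.35 SE, edgeR adjusted p = 0.0158; 0.0842 without Drop-seq), and 4 platelet markers summed to 41.3, 68.2 and 65 CPM in endothelium and 10.4, 17.2 and 38.6 CPM in other cells. These sums are over all counts and the single Pf4 values over shared genes, so the sums and single values are unlike measures. Another of the 4 platelet markers, Ppbp, was at 0 in the endothelium of every library, and the part of platelets in the Pf4 value was not tested.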

How the data were processed

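The deposited tables hold raw counts per gene and cell, made by the authors: UMI counts in Drop-seq and 10x and read counts in C1. Per the submitters' processing notes, 10x data went through Cell Ranger 1.3.0 and those of the remaining platforms through Bowtie2 2.2.7, with mm10 as the build. The sources used here name neither the counting tool nor the annotation, the preparation text in the labels is the same for all 3 samples, and the C1 table lists no mitochondrial gene. The authors' normalized tables were not used.

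Total counts in kept cells were 17751487, 17952211 and 173267108 in Drop-seq, 10x and C1; 36, 43 and 29 barcodes under 500 genes were removed. Counts of 17864 shared gene symbols were summed per library and group and tested in edgeR 4.0.16 (R 4.3.3; TMM, filterByExpr, robust quasi-likelihood F, library block, 2-sided). CPM are over shared genes, and summed marker levels over all counts. Standard errors are the log2 fold change over the square root of F. The gate's genes, and in the stroma comparison the stroma gate's too, were left out. Doublets were called by Scrublet (scanpy 1.11.5) and kept in the main analysis. An alternative removed the calls of 10x only, since under 0.5% of cells were called in Drop-seq and C1. Of the called cells, 3 of 5 in Drop-seq, 11 of 17 in 10x and 2 of 3 in C1 were endothelial. Both groups of a library come from the same sample, so the library pairs them and is the block. GENCODE and RefSeq annotation of GRCm38 gave promoters.

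The members, gene lists and tests were chosen with earlier results of these data known. Genes were named by rule: the 10 highest and 10 lowest calls with 1 direction in all libraries and 10 or more counts in each, up to 4 called members of each list by size and 3 not called by mean count, and the 8 markers and 8 independent genes. Other genes named are further members of the lists. Alternatives were DESeq2 1.42.0, limma-voom (limma 3.58.1), no filter, no block, other gates, thinning and leaving out each library.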

Additional observations from a re-analysis of the deposited data

Results flagged for a closer look

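Car2, carbonic anhydrase 2, had log2 ratios of opposite sign in different libraries. Against all other cells they were -3.68, 2.87 and 3.11 for Drop-seq, 10x and C1. In the same order Car2 was found in 3.17%, 37.3% and 39% of endothelial cells, against 10.5%, 7.78% and 4.82% of other cells. Against stroma-marked cells the log2 ratios were -1.78, 5.53 and 4.63. With 1 library a platform, the difference was not tested. Erythroid markers summed to 1251 CPM in endothelium and 15153 CPM in other cells of Drop-seq, where Car2 was lower in endothelium. In 10x they summed to 478 CPM in endothelium and 873 CPM in other cells, where Car2 was higher in endothelium. The part of erythroid transcripts in the Car2 values was not tested.

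Synpo, a podocyte gene, had log2 ratios against all other cells of -5.83, -0.04 and 1.39 for Drop-seq, 10x and C1. The Drop-seq endothelium held 0 counts, so that ratio depends on the prior count, and against a floor of 3 counts the level was at least 1.13-fold lower. The difference between libraries was not tested.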

How the results depend on the processing

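The counts of calls depended on the test and on detection in C1. Against all other cells, limma-voom called 2306 genes higher and 1711 lower, and a fit with no replicate block 226 and 15, against 1272 and 1000 with the block. With 1 read as detection in C1 the counts were 143 and 20. Leaving out a library gave 793 to 1502 higher and 573 to 1936 lower. Against stroma the main counts were 1459 and 1195; limma-voom gave 2359 and 2091, no block 248 and 124, and 1 read in C1 388 and 343. Thinned cells gave 894 higher. Leaving out a library gave 984 to 1645 higher and 852 to 1738 lower. The other alternatives (DESeq2, no filter, gates of 2 or 4 markers, removal of doublets and high-mitochondrial cells, name groups apart) stayed within 1.5 times. The removal took no cells from Drop-seq or C1, so the part of doublets in those libraries was not tested. With no filter the median log2 fold change over all genes was -0.19, against -0.04.

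With 2 or more markers the endothelial shares were 9.78%, 27.2% and 12.1% in Drop-seq, 10x and C1, and with 4 or more 18.3% in 10x. The C1 share was 30.1% with 1 read and 3.88% in cells thinned to 50000 reads. Kcnj8, not called, reached a log2 fold change of 0.72 over other cells with 2 or more markers (-0.09 with 3 or more), and Krt18 over stroma had -0.033 in thinned cells, against 1.06 in all cells. Of 225 called genes of the lists and named genes, 163 kept the call whichever library was left out against all other cells, as did 177 of 214 against stroma. Over all alternatives, 9 of 93 called genes named by rule kept the call against other cells and 42 of 87 against stroma; 1 read in C1 ended 78 and no block 54 of the first, and 25 and 34 of the second. The cause of these changes was not tested.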
